A study of Mus musculus with 32 samples.

Results

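NF-kB is the transcription factor family through which inflammatory signals switch on cytokine and chemokine genes. A set of 35 of its subunits, inhibitors, adaptors and target genes was followed through RNA sequencing of glia from TDP-43_Q331K mice, which carry a mutant form of an RNA-binding protein and are used as a model of amyotrophic lateral sclerosis. The members were taken from a list of gene names. All 35 were found among the 55291 genes of the astrocyte and oligodendrocyte tables and the 53700 genes of the microglia table, and 33 among the 17572 genes of the culture table, where Csf3 and Nos2 were not among the genes listed. A filter on low counts left 31 members to test in culture, 20 in the astrocyte sorts, 17 in the oligodendrocyte sorts and 30 in the microglia.

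The series holds 32 libraries, and the TDP-43_Q331K genotype is shared by every group, vehicle cultures included. Primary astrocytes kept for 14 days were replated and then received 40 µM Omomyc for 48 h or vehicle, with 3 libraries each. Omomyc is a dominant-negative MYC miniprotein, and the title of the series puts MYC behind gliosis. Cortex and spinal cord gave astrocytes selected with ACSA2 at 3, 6 and 10 months (n = 4, 5 and 2) and oligodendrocytes selected with O4 at 6 and 3 months (n = 4 each). Microglia selected with Cd11b were taken from cortex alone at 10 and 3 months (n = 4 and 3). The promoter that drives the transgene and the age of the mice that gave the cultures are not given in the sources used here. No transgene-free mice are analysed here, so a difference with age is not separated from ageing as such.

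In resting cells NF-kB dimers built from Rela, Rel, Relb, Nfkb1 and Nfkb2 are held in the cytoplasm by inhibitors such as Nfkbia. Signals from receptors of tumour necrosis factor, interleukin 1 and microbial products destroy the inhibitor, the dimers enter the nucleus, and Nfkbia and Tnfaip3 are themselves induced, which closes a negative feedback loop. In brain, microglia are the best known source of interleukin 1 and tumour necrosis factor, and astrocytes answer them with chemokines.

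The dimers bind a kappa B element of 10 bases, and promoters of members that changed in culture are shown here because they hold such letters close to the start site. RefSeq promoters on GRCm38.p6 were found for 23 of the 35 members. The kappa B consensus was searched on both strands in the 250 bases before the start, with overlapping matches kept, and 9 of the 23 members (39.1%) held a match, against 4.46% of 27025 genes. These 9 were Cxcl1, Cxcl2, Cxcl10, Il6, Nfkb2, Nfkbia, Nfkbie, Rel and Tnfaip3. The members were listed as NF-kB genes and targets, so their higher share follows in part from that choice and is not an independent result. The 170 bases before the RefSeq start are printed 5′ to 3′ on the gene's own strand, with bases of a match in capitals. They lie at chr5:90891075-90891244 (plus strand) for Cxcl1, chr5:90903729-90903898 (plus strand) for Cxcl2, chr5:92348890-92349059 (minus strand) for Cxcl10 and chr12:55492648-55492817 (minus strand) for Nfkbia.
Cxcl1: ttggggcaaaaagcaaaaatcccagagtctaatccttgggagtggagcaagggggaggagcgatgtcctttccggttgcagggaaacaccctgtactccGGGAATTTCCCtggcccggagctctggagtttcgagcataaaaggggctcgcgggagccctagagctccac
Cxcl2: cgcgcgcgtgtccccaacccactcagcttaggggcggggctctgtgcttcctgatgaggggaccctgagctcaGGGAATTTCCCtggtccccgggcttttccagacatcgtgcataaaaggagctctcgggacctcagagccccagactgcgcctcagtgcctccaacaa
Cxcl10: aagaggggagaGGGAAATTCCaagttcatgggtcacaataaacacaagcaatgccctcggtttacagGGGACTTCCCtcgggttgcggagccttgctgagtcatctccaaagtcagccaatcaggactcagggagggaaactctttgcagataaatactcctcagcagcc
Nfkbia: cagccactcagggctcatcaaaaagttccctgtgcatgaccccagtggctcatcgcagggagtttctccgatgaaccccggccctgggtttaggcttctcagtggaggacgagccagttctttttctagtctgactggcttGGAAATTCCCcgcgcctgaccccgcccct
Cxcl1 and Cxcl2, neighbours on chromosome 5, share the 11 letters GGGAATTTCCC, which hold a match on each strand. These begin 71 bases before the start in Cxcl1 and 97 bases before it in Cxcl2. Cxcl10 held 2 separate matches and Nfkbia 1 on the opposite strand. A match describes the sequence and does not show binding.

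The libraries held 6151583 to 20763190 counts in astrocytes, 9752907 to 18598533 in oligodendrocytes, 4145129 to 5612071 in microglia and 30117025 to 37470972 in culture. Levels are given as CPM, library counts scaled to a common total after TMM normalization, and a change as the log2 fold change ± SE from edgeR's quasi-likelihood fit. The fit gives no SE, so it was derived as the size of the log2 fold change over the square root of the F statistic. A gene is said to have risen or fallen when its Benjamini-Hochberg adjusted p over all genes of the table was under 0.05. Selected cells carried the markers of their label. Slc1a3, an astrocyte glutamate transporter gene, was at 3004 to 4699 CPM in astrocyte sorts, against 37.4 to 89.4 CPM in oligodendrocyte sorts. The myelin gene Mog was at 834 to 1445 CPM in oligodendrocyte sorts, and Cx3cr1, a microglial chemokine receptor gene, at 15018 to 28793 CPM in microglia. The sorts were not pure in RNA. Astrocyte sorts had 250 to 641 CPM of Mog and 0.207 to 1.30 CPM of the microglial gene Tmem119, and microglia sorts 74.4 to 2890 CPM of the choroid plexus gene Ttr. The astrocyte cultures had 188 to 442 CPM of Cx3cr1 and 47.4 to 119 CPM of Tmem119.

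Where the members were expressed differed by cell type. In microglia 25 members at 10 months and 24 at 3 months averaged at least 10 CPM, and in culture 19 did with Omomyc and 21 with vehicle. In astrocyte sorts only 6, 7 and 7 did so at 3, 6 and 10 months, and in oligodendrocyte sorts 5 at 6 months and 4 at 3 months. Microglia, cultures and the astrocyte and oligodendrocyte sorts were sequenced with 3 different kits, so no test was made between these 3 sets. In the astrocyte and oligodendrocyte sorts subunits, the inhibitor Nfkbia and, in astrocytes, Vcam1 and Traf1 led the order. Per transcript length, in the TPM values that the authors deposited, Vcam1 (92.6 ± 12.6 TPM), Nfkbia (72.8 ± 25.4) and Rela (72.4 ± 2.87) stood highest in 3 month astrocytes (SD, n = 4), and their ranges over the 4 libraries overlapped. Nfkb2 (12.3 ± 1.69 TPM) and Traf1 (10.6 ± 1.48 TPM) came next in 3 month astrocytes, and their ranges overlapped too. In 3 month oligodendrocytes Rela was at 100 ± 3.84 TPM and Nfkbia at 43.2 ± 5.09 TPM, and no other member averaged 10 TPM or more. Il1b (6.50 ± 2.79 TPM) and Ccl3 (6.19 ± 2.02 TPM) had means above the subunit Nfkb1 (4.73 ± 0.212 TPM) in 3 month oligodendrocytes, with overlapping ranges. Most chemokine and interleukin transcripts were scarce in astrocytes. All 6 CC chemokines, Cxcl1, Cxcl2, Il6, Tnf, Csf3 and Il1rn averaged under 1 CPM in astrocytes at each age, and Ccl12, Il6 and Csf3 had 0 counts in both 10 month libraries.

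**Figure D1:**
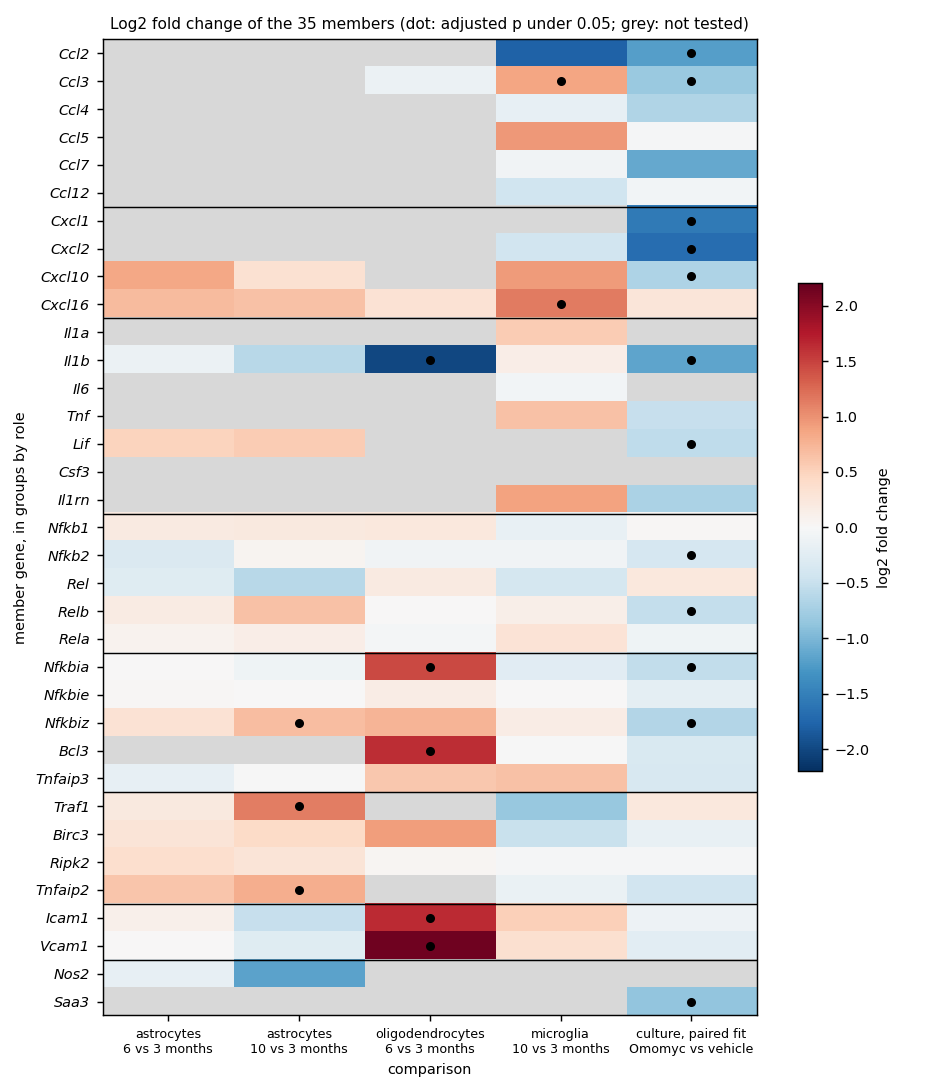
Log2 fold change (colour scale) of the 35 members (vertical axis, grouped by role) in 5 comparisons (horizontal axis), each as later over earlier age or Omomyc over vehicle; dots mark an adjusted p under 0.05 and grey cells were not tested. Lower values fill the culture column, where 12 members carry a dot, and the age columns carry 3 or fewer dots each except the 5 of oligodendrocytes.

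Omomyc was set against vehicle in cultured astrocytes to ask which transcripts follow MYC inhibition. When libraries were paired by replicate number, 12 members were lower with Omomyc, by 1.30-fold to 3.20-fold. They were 5 chemokine genes (Ccl2, Ccl3, Cxcl1, Cxcl2 and Cxcl10), the cytokine genes Il1b and Lif and the subunit genes Nfkb2 and Relb. The others were the inhibitor gene Nfkbia, its relative Nfkbiz, and Saa3. Libraries with the same replicate number deviated together in these cultures, so a fit that keeps the number as a block (the paired fit) is given besides the planned unpaired one. Log2 fold changes and adjusted p of single genes in culture are from the paired fit unless the unpaired one is named. The labels do not say that the numbers mark a shared preparation. In the paired fit 12 of 31 members were lower and 0 higher, where 4.07% of all 16119 genes were called (1.84% lower and 2.23% higher). The median log2 fold change was -0.42 over the 31 members and -0.0006 over all genes. The unpaired edgeR fit called 0 members, where 0.0186% of genes were called, with 11 members at an unadjusted p under 0.05. Without the block DESeq2 called 5 members, all lower, and limma-voom 0, where they called 97 and 2 genes in all. The 5 were Ccl2, Cxcl2, Cxcl10, Nfkbia and Relb. In that DESeq2 fit Ccl3, Il1b and Nfkbiz were far from passing (DESeq2 adjusted p = 0.840, 0.919 and 0.396), so their calls rest on the block. In 23 of the 31 members Omomyc was below vehicle in each of the 3 pairs, as in 21.2% of all genes. In these bulk libraries fewer cells of a kind and less RNA per cell cannot be told apart.

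Ccl2, a chemokine that draws monocytes, was at 4.02, 4.77 and 3.86 CPM with Omomyc, against 9.99, 10.2 and 9.13 CPM with vehicle. The groups did not overlap, and each Omomyc library was below its pair. In the paired fit Ccl2 was 2.32-fold lower (log2 -1.22 ± 0.10, edgeR adjusted p = 0.00158), and in the unpaired fit its log2 fold change was -1.21 ± 0.13 (adjusted p = 0.0807). Cxcl2, a neutrophil attractant, was at 0.666, 0.312 and 0.702 CPM with Omomyc, against 1.61, 1.66 and 2.10 CPM with vehicle. These rest on 22, 10 and 26 counts with Omomyc and 49, 53 and 66 counts with vehicle. Cxcl2 had the largest fold change of the 12 (3.20-fold lower, log2 -1.68 ± 0.25, edgeR adjusted p = 0.0128). Its neighbour and close relative Cxcl1 was at 0.212, 0.499 and 0.621 CPM with Omomyc, against 1.51, 1.35 and 1.11 CPM with vehicle. The Cxcl1 groups did not overlap (log2 -1.56 ± 0.34, edgeR adjusted p = 0.0466), and its call was lost in 3 of the 6 other paired fits, where adjusted p reached 0.0813.

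Cxcl10, an interferon-induced chemokine that attracts T cells, was at 9.14, 12.2 and 11.3 CPM with Omomyc, against 16.5, 18.2 and 17.1 CPM with vehicle. It was 1.59-fold lower with no overlap (log2 -0.67 ± 0.09, edgeR adjusted p = 0.00785). Ccl3, which attracts macrophages, was at 2.72, 3.46 and 7.08 CPM with Omomyc, against 4.57, 7.91 and 10.6 CPM with vehicle. The Ccl3 groups overlapped while every pair went down, and the paired log2 fold change was -0.82 ± 0.14 (edgeR adjusted p = 0.0181). Ccl4 and Ccl7, of the same family, were lower in all 3 pairs without passing (paired adjusted p = 0.0544 and 0.079). Ccl5 and Ccl12 went both ways among the pairs. Cxcl16, a membrane-bound chemokine, was the exception. It was at 51.1, 62.3 and 98.6 CPM with Omomyc, against 44.3, 53.1 and 77.8 CPM with vehicle, higher in all 3 pairs (log2 0.26 ± 0.06, paired adjusted p = 0.0552).

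Il1b, the secreted interleukin 1 beta, was at 0.272, 0.655 and 1.43 CPM with Omomyc, against 0.855, 1.66 and 2.64 CPM with vehicle. The groups overlapped, and in each pair Omomyc was lower (log2 -1.17 ± 0.22, edgeR adjusted p = 0.0287). The Il1b call was lost in the paired fits of DESeq2 and limma-voom, with an adjusted p of up to 0.064. Lif, leukaemia inhibitory factor, a cytokine of the interleukin 6 family, was at 10.4, 8.85 and 8.54 CPM with Omomyc, against 13.6, 11.9 and 15.6 CPM with vehicle. The Lif groups did not overlap (log2 -0.56 ± 0.11, edgeR adjusted p = 0.0333). Tnf, tumour necrosis factor, and Il1rn, the interleukin 1 receptor antagonist, were lower in all 3 pairs without passing (paired adjusted p = 0.0559 and 0.0689). Il1a and Il6 had 2 to 13 counts per library and were not tested.

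Of the 5 NF-kB subunit genes 2 were lower with Omomyc. Relb and Nfkb2 are the partners of the non-canonical dimer. Relb was at 18.4, 20.7 and 23.2 CPM with Omomyc, against 31.5, 29.1 and 29.1 CPM with vehicle. Nfkb2 was at 42.7, 39.9 and 45.8 CPM with Omomyc, against 57.5, 49.0 and 60.2 CPM with vehicle. Neither gene overlapped between the groups (Relb log2 -0.53 ± 0.09, edgeR adjusted p = 0.0204; Nfkb2 log2 -0.38 ± 0.06, adjusted p = 0.0165). Both calls were lost in the paired fit without replicate 1 (adjusted p = 0.0534 and 0.0689). Rela, Nfkb1 and Rel, the subunits of canonical dimers, were not called (log2 -0.10 ± 0.06, 0.02 ± 0.06 and 0.23 ± 0.10), and Rel was above vehicle in all 3 pairs.

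Among inhibitors and their relatives, Nfkbia, which encodes IkB alpha, was at 41.5, 43.5 and 49.9 CPM with Omomyc, against 67.4, 65.4 and 63.8 CPM with vehicle. The groups were well apart (1.46-fold lower, log2 -0.55 ± 0.08, edgeR adjusted p = 0.00938). Nfkbiz, a nuclear IkB protein that co-activates secondary response genes, was at 18.8, 17.3 and 27.8 CPM with Omomyc, against 32.2, 25.7 and 41.3 CPM with vehicle. Its groups overlapped, yet the 3 pairs moved alike, with ratios of 0.585, 0.673 and 0.673 (log2 -0.64 ± 0.07, edgeR adjusted p = 0.00466). Nfkbie, Bcl3, another nuclear IkB protein, and Tnfaip3, the ubiquitin-editing enzyme A20, were lower in all pairs without passing (paired log2 -0.22 ± 0.08, -0.33 ± 0.10 and -0.35 ± 0.10).

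Saa3, an acute phase protein gene, was at 4.78, 10.6 and 21.5 CPM with Omomyc, against 12.4, 21.9 and 27.4 CPM with vehicle. It overlapped widely between groups and was lower in each pair (log2 -0.86 ± 0.17, edgeR adjusted p = 0.0306), but its call was lost in 2 of 6 other paired fits. The adaptors and survival genes were not called. Traf1, a receptor adaptor, was higher in all pairs (log2 0.23 ± 0.06, paired adjusted p = 0.0704), and Birc3, an inhibitor of apoptosis, Ripk2, the kinase of NOD receptors, and Tnfaip2 had log2 fold changes of -0.16 ± 0.10, -0.03 ± 0.09 and -0.42 ± 0.11. The endothelial and glial adhesion genes Vcam1 and Icam1 were not called (-0.24 ± 0.06 and -0.11 ± 0.07). Of the 12 genes called lower, 7 were called in each of the 7 paired fits, namely Ccl2, Ccl3, Cxcl2, Cxcl10, Lif, Nfkbia and Nfkbiz. Of the 9 genes among the 12 that have a RefSeq promoter, 5 held a kappa B match (Cxcl1, Cxcl2, Cxcl10, Nfkb2 and Nfkbia), as did 3 of 12 among the members tested and not called.

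**Figure D2:**
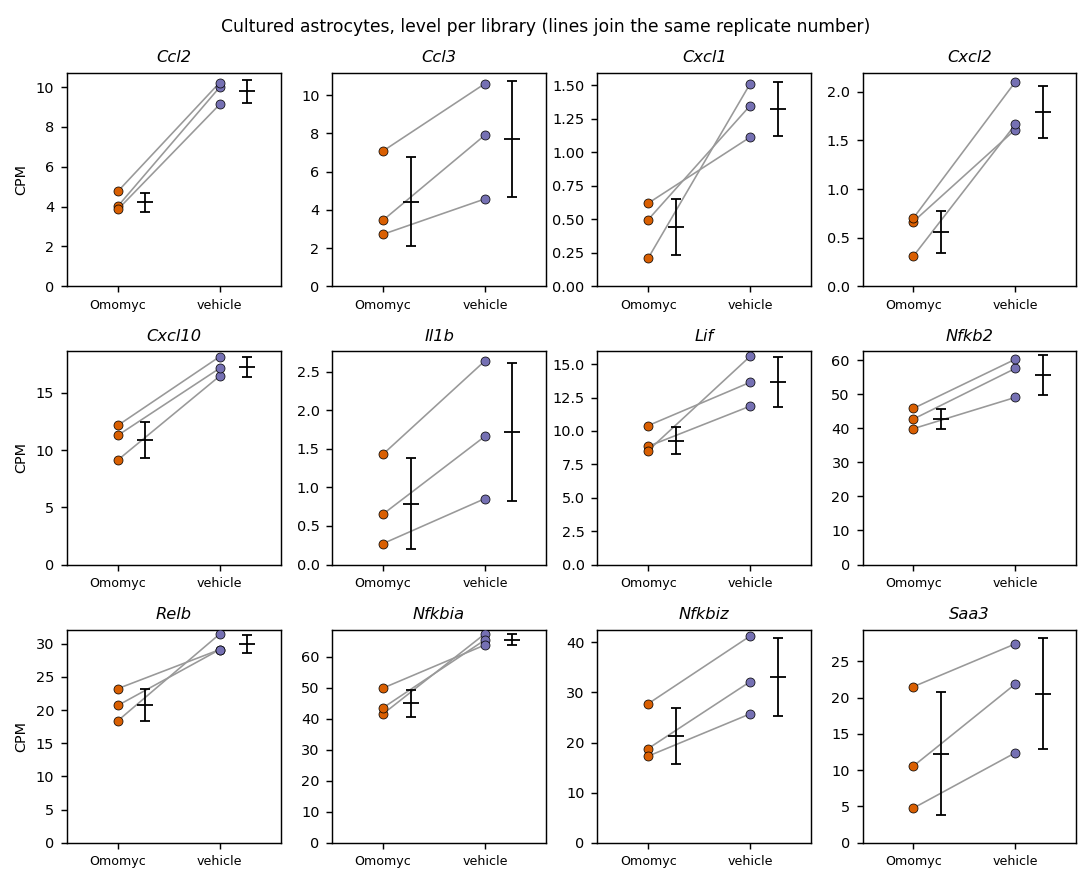
Level in CPM (vertical axes, from 0) of the 12 members called lower in the paired fit, for Omomyc (orange, left) and vehicle (purple, right) libraries; grey lines join libraries with the same replicate number, and bars give the mean ± SD (n = 3 each). Every line goes up toward vehicle, with a clear gap between groups for Ccl2, Cxcl10 and Nfkbia and a wide spread over replicate numbers for Il1b and Saa3.

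Other genes of the pathway were counted by layer in the paired fit. Of 22 receptor genes tested, 3 were higher and 0 lower, among them the genes for Toll-like receptors Tlr9 (log2 0.69 ± 0.12) and Tlr7 (0.49 ± 0.08). Of 33 signalling genes 3 were lower and 0 higher: Irak3, a brake on interleukin 1 receptor signals (-0.94 ± 0.10), the kinase gene Ikbke (-0.52 ± 0.07) and Tnip1, a partner of A20 (-0.34 ± 0.06). Of 19 further target genes 4 were lower, led by the protease gene Mmp9 (-1.53 ± 0.15) and Lcn2, lipocalin 2 (-1.18 ± 0.13), with Ier3 (-0.63 ± 0.09) and Zc3h12a (-0.45 ± 0.10), and 1 was higher, Ptgs2, which encodes cyclooxygenase 2 (0.71 ± 0.07). EdgeR adjusted p of the genes named here was between 0.00265 and 0.0454.

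Microglial markers were measured in the same fit. Of 17 microglial markers tested, 9 were higher and 0 lower in the paired fit, among them P2ry12 (log2 0.84 ± 0.09), Tmem119 (0.62 ± 0.06) and Cx3cr1 (0.31 ± 0.06). The summed markers lay at 2781 to 5531 CPM with Omomyc and 2387 to 4293 CPM with vehicle, none at 0. Astrocyte markers summed to 8503 to 9366 CPM with Omomyc and 8231 to 10035 CPM with vehicle, with 1 of 11 called, and mural and fibroblast markers to 5459 to 7068 CPM with Omomyc and 5884 to 8492 CPM with vehicle, with 0 of 9 called. Of 11 endothelial markers tested 2 were higher, and the list summed to 296 to 408 CPM with Omomyc and 227 to 317 CPM with vehicle. Slco1a4 was the largest part of this sum in every library, at 8549 to 12480 counts with Omomyc and 5246 to 8766 with vehicle. Pecam1 had 5 to 20 counts with Omomyc and 14 to 34 with vehicle, and Cldn5, Emcn, Erg and Tie1 were not among the genes listed for culture. Of the 11 markers, 7 had a positive and 4 a negative log2 fold change. Of 7 oligodendrocyte precursor markers 2 were higher, of 9 oligodendrocyte markers 1 was higher, and of 8 neuronal markers 1 was lower. Macrophage and neutrophil, choroid plexus and lymphocyte markers were not called. Of 16 immediate early genes 4 were lower, and their sum was 1014 to 1085 CPM with Omomyc and 1188 to 1211 CPM with vehicle. The part of these other transcripts in the members' result was not tested.

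In astrocytes with age, Traf1, Nfkbiz and Tnfaip2 rose at 10 months against 3 months, and the other members tested did not pass. Between 6 and 3 months edgeR called 0 of 20 members, where 14.6% of 16189 genes were called (6.28% higher and 8.29% lower). DESeq2 and limma-voom called 0 as well, and 4 members (Lif, Nfkb2, Ripk2 and Tnfaip2) had an unadjusted p under 0.05. Between 10 and 3 months 3 of 20 rose and 0 fell, where 11.5% of genes rose and 11.2% fell. The median log2 fold change was 0.19 over the 20 members and 0.02 over all genes. The 10 month group has only 2 libraries. The comparisons of 6 and of 10 months share the 3 month libraries.

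Traf1, an adaptor of tumour necrosis factor receptors that NF-kB itself induces, was at 27.3, 29.0, 23.3 and 32.4 CPM at 3 months, at 25.4, 26.5, 35.2, 32.7 and 42.2 CPM at 6 months, and at 51.9 and 70.3 CPM at 10 months. Both 10 month libraries lay above all others, while 6 and 3 months overlapped. Traf1 rose 2.17-fold at 10 months against 3 months (log2 1.12 ± 0.18, edgeR adjusted p = 0.000666), and the call held in all 11 fits that left out a library. Against 6 months it rose by 0.90 ± 0.17 (adjusted p = 0.0222), the only member of 20 called, where 0.908% of genes were called (0.574% higher). Without 10 month replicate 2 that change was 0.67 and was not called (adjusted p = 0.335).

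Nfkbiz was at 7.32, 10.6, 7.59 and 8.55 CPM at 3 months, at 9.57, 10.7, 11.9, 8.76 and 11.5 CPM at 6 months, and at 14.1 and 13.05 CPM at 10 months. Its 10 month libraries were above all others (log2 0.68 ± 0.18 against 3 months, edgeR adjusted p = 0.0145). Tnfaip2, a target of tumour necrosis factor with a role in membrane protrusions, was at 3.77, 4.47, 3.66 and 2.49 CPM at 3 months, at 7.78, 4.95, 4.94, 4.80 and 4.55 CPM at 6 months, and at 5.13 and 7.03 CPM at 10 months. The 3 month libraries were the lowest (log2 0.81 ± 0.28 for 10 against 3 months, edgeR adjusted p = 0.0443). Without either 10 month library the Nfkbiz call was lost (adjusted p = 0.126 and 0.0593), and the Tnfaip2 call was lost in 8 of 11 fits that left out a library.

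Vcam1, Rela and Nfkbia, abundant members in astrocytes beside Traf1, did not pass at any age. Vcam1, an adhesion molecule gene that astrocytes express, was at 268, 255, 266 and 197 CPM at 3 months, at 259, 208, 249, 236 and 291 CPM at 6 months and at 216 and 195 CPM at 10 months. Rela averaged 66.7 ± 3.19, 70.7 ± 4.43 and 73.9 ± 1.60 CPM at 3, 6 and 10 months (SD, n = 4, 5 and 2), and Nfkbia 35.2 ± 12.4, 36.1 ± 7.24 and 33.4 ± 6.14 CPM. Nfkbia ranged from 24.4 to 51.1 CPM within the 3 month group alone. Relb was above all 3 month libraries in both 10 month libraries without passing (log2 0.65 ± 0.28, adjusted p = 0.101), and so was Lif (0.56 ± 0.25, adjusted p = 0.109).

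**Figure D3:**
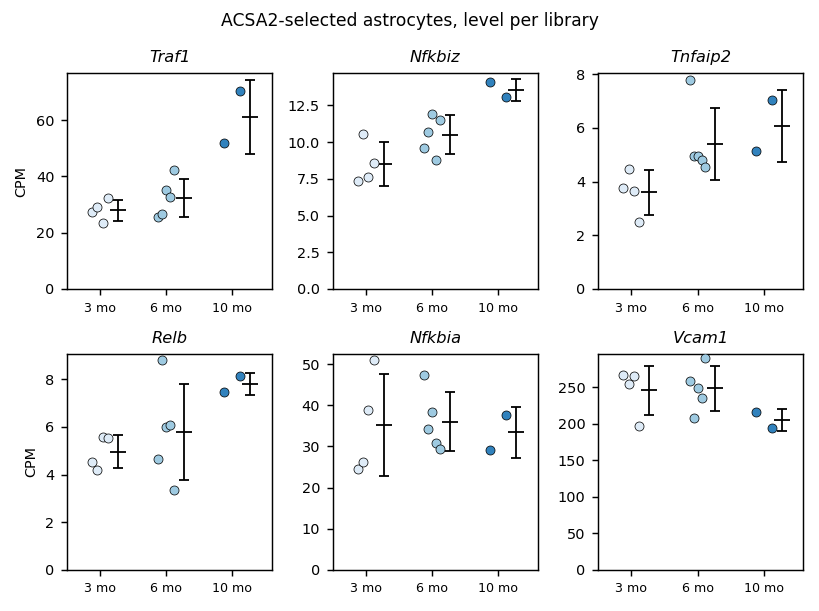
Level in CPM (vertical axes, from 0) of 6 members in astrocyte libraries at 3, 6 and 10 months (light to dark points, n = 4, 5 and 2), with bars for mean ± SD. Traf1 and Nfkbiz are highest in both 10 month libraries, and Nfkbia and Vcam1 overlap across ages.

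Upstream genes changed in both directions at 10 months. Of 14 receptor genes 3 fell and 0 rose, led by Il1rap, the accessory chain of the interleukin 1 receptor (log2 -1.18 ± 0.17), Lifr, the Lif receptor (-0.71 ± 0.11), and Il6st (-0.43 ± 0.11), the gp130 chain shared by the interleukin 6 family. Of 32 signalling genes 4 rose and 4 fell. The deubiquitinase gene Cyld (-0.74 ± 0.15) and the adaptor gene Tab2 (-0.44 ± 0.12) fell, and Ikbke (0.95 ± 0.19) and Tnip2 (0.79 ± 0.19) rose. Of 12 further targets 4 rose and 0 fell, namely the complement gene C3 (1.70 ± 0.30), Ier3 (1.27 ± 0.28), Gadd45b (0.79 ± 0.19) and Irf1 (0.89 ± 0.22). Between 6 and 3 months C3, Irf1 and Ier3 rose as well, and Il1rap, Il6st, Cyld, Traf6 and Tab2 fell, with edgeR adjusted p between 0.00179 and 0.0335. Immediate early genes, which respond to cell handling as well as to signals, summed to 501 to 661 CPM at 3 months, 334 to 795 CPM at 6 months and 1120 to 1393 CPM at 10 months, and 10 of 14 rose at 10 against 3 months. Of 12 microglial markers 4 rose at 10 against 3 months and 0 fell. Their sum was 221 to 292, 221 to 273 and 228 to 270 CPM at 3, 6 and 10 months, most of it from Sall1, at 156 to 242 CPM over the ages. Without Sall1, a sum chosen after its values were seen, the markers were at 49.9 to 56.9, 61.2 to 81.1 and 68.2 to 72.5 CPM, so both 10 month libraries were above all 3 month ones. The complement gene C1qa, 1 of the 4, was at 1.18 to 1.63, 1.36 to 3.04 and 3.85 to 4.53 CPM.

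Other marker lists also moved in these astrocyte sorts. Markers of oligodendrocyte precursors summed to 199 to 263, 151 to 188 and 298 to 456 CPM at 3, 6 and 10 months, and 3 of 8 rose at 10 against 3 months. Macrophage and neutrophil markers summed to 5.06 to 5.70, 6.10 to 11.9 and 7.69 to 10.5 CPM, and 1 of 5 rose. Choroid plexus markers were at 227 to 1503, 129 to 288 and 15.2 to 52.0 CPM, and 5 of 6 fell. Endothelial markers were at 234 to 454, 184 to 413 and 154 to 253 CPM with 4 of 15 lower, and oligodendrocyte markers at 24184 to 38011, 16496 to 24956 and 17203 to 26435 CPM with 5 of 12 lower. The part of these transcripts, the immediate early and microglial ones included, in the members' changes was not tested.

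In oligodendrocytes Vcam1, Icam1, Bcl3 and Nfkbia rose and Il1b fell at 6 months against 3 months. Of 17 members tested 4 rose, where 14.9% of 14050 genes rose, and 1 fell, where 9.46% fell. The median log2 fold change was 0.23 over these members and 0.02 over all genes.

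Vcam1 was at 13.9, 12.9, 24.0 and 16.1 CPM at 6 months, against 3.60, 5.89, 2.65 and 2.93 CPM at 3 months. The groups were apart, and Vcam1 rose 4.39-fold (log2 2.14 ± 0.28, edgeR adjusted p = 0.000899). Icam1, an adhesion molecule gene of leukocyte contact, was at 2.34, 2.48, 3.64 and 2.18 CPM at 6 months, against 0.901, 0.563, 1.28 and 0.617 CPM at 3 months. It rose 3.13-fold with no overlap (log2 1.65 ± 0.32, edgeR adjusted p = 0.00469), on 20 to 49 counts per library at 6 months and 8 to 25 at 3 months. Both calls held in all 8 fits that left out a library.

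Bcl3 was at 2.26, 5.68, 1.78 and 3.05 CPM at 6 months, against 1.25, 0.409, 1.33 and 1.23 CPM at 3 months. Bcl3 rose by 1.63 ± 0.44 (edgeR adjusted p = 0.0238), a call lost without 3 month replicate 1 or 6 month replicate 2 (adjusted p = 0.0533 and 0.0841). Nfkbia was at 103, 26.9, 28.2 and 39.3 CPM at 6 months, against 16.2, 17.0, 17.3 and 21.3 CPM at 3 months. All 6 month libraries were above all 3 month ones, and replicate 1 stood far from the rest. With it the change was 1.46 ± 0.45 (edgeR adjusted p = 0.0487), and without it 0.80 (adjusted p = 0.00119). The call was lost without any one of the 3 month libraries or without 6 month replicate 4 (adjusted p = 0.0667 to 0.120).

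Il1b went down. It was at 0.565, 0.664, 1.11 and 0.871 CPM at 6 months, against 3.95, 3.84, 3.83 and 1.16 CPM at 3 months, which is 7 to 15 counts per library at 6 months and 15 to 75 at 3 months. Il1b fell by 2.001 on the log2 scale (SE 0.41, edgeR adjusted p = 0.00616), and 3 month replicate 4 lay close to the 6 month libraries. Subunit genes did not pass. Rela averaged within 0.05 of no change on the log2 scale (-0.05 ± 0.07), and Nfkb1, Nfkb2, Rel and Relb had log2 fold changes from -0.07 to 0.23. Nfkbiz (0.74 ± 0.26, adjusted p = 0.0593) and Birc3 (0.92 ± 0.34, adjusted p = 0.074) were close to the threshold.

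**Figure D4:**
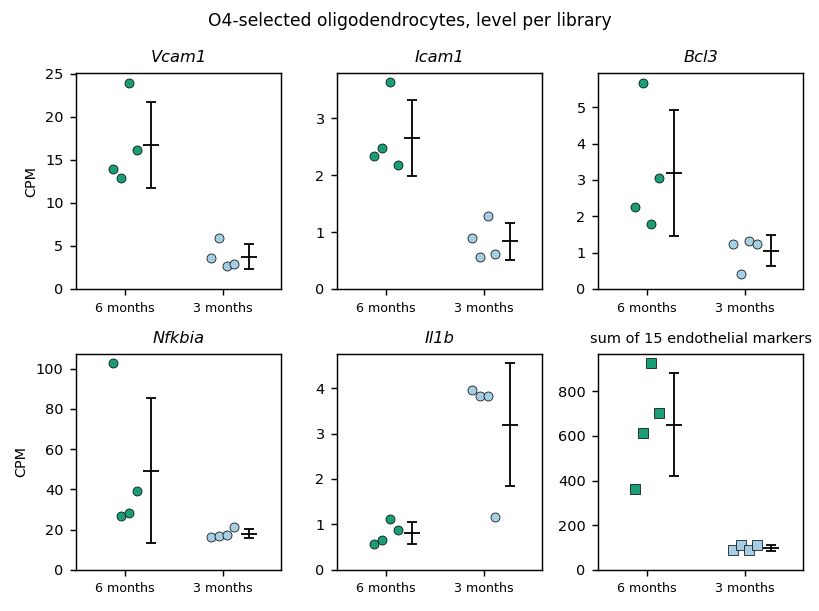
Level in CPM (vertical axes, from 0) of the 5 members called in oligodendrocytes and the sum of 15 endothelial markers (squares), at 6 months (green, left) and 3 months (blue, right), with bars for mean ± SD (n = 4 each). Vcam1 and Icam1 are higher in every 6 month library, as is the endothelial sum, and 1 library sets the wide bar of Nfkbia.

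Transcripts of vessel cells rose in the same 6 month sorts. All 15 endothelial markers rose, and their sum was 363 to 926 CPM at 6 months and 87.2 to 111 CPM at 3 months, with none at 0. The endothelial junction gene Cldn5 was at 23.2 to 74.8 CPM at 6 months and 5.96 to 9.64 CPM at 3 months. Of 10 mural and fibroblast markers tested 7 rose, and the sum of the list was 176 to 394 CPM at 6 months and 56.1 to 94.1 CPM at 3 months. Vcam1 and Icam1 are both well known in activated endothelium. Immediate early genes summed to 2184 to 3227 CPM at 6 months and 1273 to 1583 CPM at 3 months, and 12 of 14 rose. Microglial markers, whose cells make Il1b, summed to 193 to 201 CPM at 6 months and 225 to 314 CPM at 3 months. Of 16 tested 2 fell, P2ry12 and Sall1, and 0 rose. Without Sall1 the sums overlapped, at 76.0 to 94.1 CPM at 6 months and 59.7 to 116 CPM at 3 months.

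Further marker lists were measured in these oligodendrocyte sorts. Precursor markers summed to 2036 to 4296 CPM at 6 months and 1180 to 1821 CPM at 3 months, with 1 of 8 higher and 2 lower. Bcas1 was the largest part of this sum in every library, at 21037 to 61343 counts at 6 months and 9355 to 17663 at 3 months. Pdgfra went the other way, with 191 to 371 counts at 6 months and 605 to 2433 at 3 months. The higher sum thus does not show a rise of the list as a whole. Choroid plexus markers ranged over 296 to 3854 CPM at 6 months and 37.0 to 905 CPM at 3 months, with 0 of 6 called. Astrocyte markers summed to 2149 to 4318 CPM at 6 months and 1578 to 2364 CPM at 3 months, with 1 of 12 higher. S100b was the largest part of this sum in every library, at 20014 to 59381 counts at 6 months and 14634 to 24775 at 3 months. Gfap had 916 to 4286 counts at 6 months and 897 to 1574 at 3 months, and Slc1a3 462 to 689 and 534 to 1748. The sum thus mostly follows S100b and does not show a rise of the list as a whole. Vcam1 itself was at 171 to 265 CPM in astrocyte sorts in the fit that joins both cell types. Neuronal markers summed to 164 to 255 CPM at 6 months and 156 to 168 CPM at 3 months, with 5 of 10 higher. Oligodendrocyte markers summed to 108517 to 169360 CPM at 6 months and 82340 to 111516 CPM at 3 months, with 2 of 12 higher and 6 lower. The part of these transcripts, those of vessel cells, microglia and immediate early genes included, in the members' changes was not tested.

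Upstream genes were also called in the 6 month oligodendrocyte sorts. Of 15 receptor genes 6 rose and 0 fell, led by the interleukin 1 receptor gene Il1r1 (log2 3.30 ± 0.34), the oncostatin M receptor gene Osmr (3.04 ± 0.38), Il6ra (1.64 ± 0.21) and the tumour necrosis factor receptor gene Tnfrsf1a (0.94 ± 0.17). Of 30 signalling genes 5 rose, Ripk1 (0.53 ± 0.12) and the IkB kinase gene Chuk (0.32 ± 0.08) among them, and Tab1 fell (-0.40 ± 0.10). Of 11 further targets Ptgs2 (2.09 ± 0.25), Gadd45b (0.91 ± 0.16), C3 (1.25 ± 0.26) and Irf1 (1.33 ± 0.33) rose and Csf1 fell (-0.37 ± 0.11). EdgeR adjusted p of these genes was between 0.000262 and 0.0394.

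In microglia 2 chemokine genes rose at 10 months against 3 months. Of 30 members tested Ccl3 and Cxcl16 rose, where 3.21% of 12320 genes were called (1.94% rose and 1.27% fell), and 0 members fell. The median log2 fold change was -0.0031 over the 30 members and 0.0047 over all genes.

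Ccl3 was at 297, 164, 290 and 278 CPM at 10 months, against 120, 132 and 172 CPM at 3 months. Replicate 2 of 10 months lay below the highest 3 month library, and the other 10 month libraries lay far above it (log2 0.87 ± 0.19, edgeR adjusted p = 0.0227). Cxcl16 was at 50.9, 31.0, 38.8 and 52.9 CPM at 10 months, against 23.1, 20.8 and 15.2 CPM at 3 months. It rose 2.20-fold with no overlap (log2 1.14 ± 0.25, edgeR adjusted p = 0.0232). The Ccl3 call was lost in 5 and the Cxcl16 call in 4 of 7 fits that left out a library, with log2 fold changes from 0.76 to 1.04 and from 0.99 to 1.28.

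The most abundant members did not pass. Nfkbia was at 2417, 1820, 2146 and 2614 CPM at 10 months, against 3398, 2647 and 2025 CPM at 3 months (log2 -0.26 ± 0.16, adjusted p = 0.444). Nfkbiz was at 1088, 744, 1007 and 682 CPM at 10 months, against 849, 693 and 821 CPM at 3 months. Ccl4, the closest relative of Ccl3, was at 496, 385, 458 and 668 CPM at 10 months, against 550, 521 and 641 CPM at 3 months with overlap, and was not called (log2 -0.19 ± 0.16, adjusted p = 0.61). Its difference from Ccl3 was not tested.

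Ccl2 showed the widest gap in microglia without a call. It was at 1.64, 2.37, 3.79 and 5.97 CPM at 10 months, against 17.7, 6.77 and 11.1 CPM at 3 months, with no overlap (log2 -1.77 ± 0.52, adjusted p = 0.0777). Tnf was at 110, 95.5, 123 and 87.0 CPM at 10 months, against 50.4, 80.1 and 70.2 CPM at 3 months, also with no overlap (log2 0.64 ± 0.18, adjusted p = 0.0738). Cxcl10 (0.94 ± 0.35, adjusted p = 0.171) and Icam1 (0.52 ± 0.21, adjusted p = 0.201) were higher in every 10 month library without passing. Il1b averaged 473 ± 97.4 CPM at 10 months (n = 4) and 428 ± 212 CPM at 3 months (n = 3), a spread wider than the difference. It had 3702 counts in 3 month replicate 1, against 1200 and 1494 in replicates 2 and 3. The 5 subunit genes had log2 fold changes from -0.39 to 0.30, none of them called. Lif, Csf3 and Nos2 had 0 counts in all 10 month libraries.

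**Figure D5:**
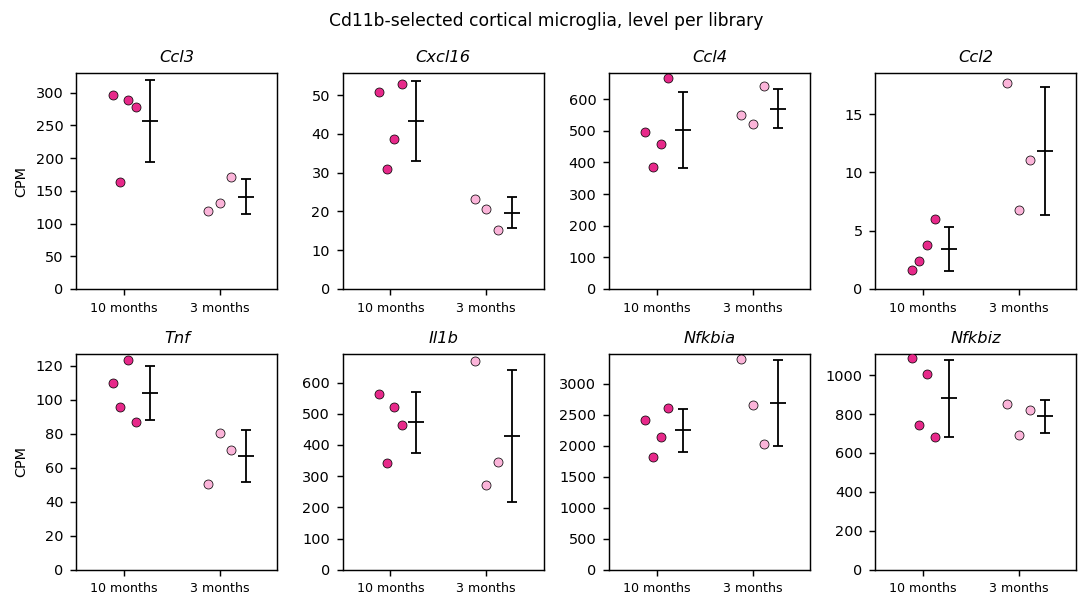
Level in CPM (vertical axes, from 0) of 8 members in microglia libraries at 10 months (dark pink, left, n = 4) and 3 months (light pink, right, n = 3), with bars for mean ± SD. Cxcl16 and Tnf are higher and Ccl2 lower in every 10 month library, and Ccl4, Il1b, Nfkbia and Nfkbiz overlap.

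Around these members, 2 of 18 receptor genes fell in microglia, Lifr (log2 -0.66 ± 0.14) and Csf3r (-0.89 ± 0.22), and 0 rose. Of 32 signalling genes Tnip1 rose (1.04 ± 0.20) and Chuk fell (-0.89 ± 0.22), and of 17 further targets Irf1 fell (-0.65 ± 0.15), with edgeR adjusted p between 0.0133 and 0.0401. Microglial markers summed to 44077 to 59703 CPM at 10 months and 33521 to 41119 CPM at 3 months, with 5 of 18 higher. Markers of other myeloid cells summed to 741 to 1064 CPM at 10 months and 574 to 2449 CPM at 3 months, with 0 of 14 called. The 2449 CPM was in 3 month replicate 1, against 950 and 574 CPM in replicates 2 and 3. That library also had the highest Il1b and Ccl2 of the 3 month group. The neutrophil gene S100a8 was at 279 to 492 CPM at 10 months and 156 to 998 CPM at 3 months. At 10 against 3 months endothelial markers summed to 112 to 144 against 84.0 to 90.4 CPM. Astrocyte markers summed to 282 to 364 against 207 to 238 CPM, and neuronal markers to 20.2 to 44.6 against 8.85 to 16.7 CPM. Sums of mural and fibroblast, oligodendrocyte, precursor, choroid plexus and lymphocyte markers overlapped. Immediate early genes summed to 10340 to 13055 CPM at 10 months and 13291 to 15461 CPM at 3 months, and 4 of 16 fell. The part of these transcripts in the members' changes was not tested.

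Astrocytes and oligodendrocytes of 3 and 6 months were made with the same kit and could be set against each other. Of 22 members tested 16 differed, 8 higher and 8 lower in astrocytes, where 74.6% of 16363 genes differed (38.7% higher and 35.9% lower), so the share is near that of all genes. The adhesion gene Vcam1 and the adaptor Traf1 had the largest of these differences beside Lif. Vcam1 ranged from 171 over a median of 229 to 265 CPM in 9 astrocyte libraries, against 3.03, 10.5 and 26.2 CPM in 8 oligodendrocyte libraries (log2 4.62 ± 0.16, edgeR adjusted p = 7.58e-15). Traf1 had a lowest, median and highest level of 20.7, 26.0 and 38.5 CPM in astrocytes, against 0.237, 0.766 and 1.38 CPM in oligodendrocytes (log2 5.01 ± 0.17, adjusted p = 2.37e-16). Neither gene overlapped between the cell types.

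Tnfaip2 had a lowest, median and highest level of 2.16, 4.15 and 6.91 CPM in astrocytes, against 0.262, 0.396 and 1.07 CPM in oligodendrocytes (log2 2.74 ± 0.27). Lif was at 2.25, 3.30 and 4.35 CPM in astrocytes by the same measures, against 0, 0.0686 and 0.199 CPM in oligodendrocytes (log2 5.19 ± 0.31). Birc3 (1.12 ± 0.21), Cxcl10 (3.08 ± 0.55) and Nfkb1 (0.53 ± 0.08) were also higher in astrocytes. Nfkbiz was higher by 0.34 ± 0.15 (adjusted p = 0.0442), a call lost in most fits that left out a library.

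Other subunits ran the opposite way. Rela had a lowest, median and highest level of 57.2, 60.9 and 68.7 CPM in astrocytes, against 79.3, 88.7 and 95.3 CPM in oligodendrocytes, with no overlap (log2 -0.52 ± 0.05, edgeR adjusted p = 1.05e-08). Relb was at 3.07, 4.81 and 7.89 CPM in astrocytes, against 7.94, 9.87 and 11.1 CPM in oligodendrocytes (log2 -1.03 ± 0.14), and Rel was lower in astrocytes by 0.64 ± 0.14. Bcl3 (-2.17 ± 0.32), Icam1 (-1.07 ± 0.30), Ccl3 (-2.19 ± 0.35), Il1b (-1.76 ± 0.36) and Cxcl16 (-1.25 ± 0.33) were lower in astrocytes, at medians under 2 CPM in both cell types. The microglial markers were also lower in the astrocyte sorts (13 of 16 called lower, 1 higher), with sums of 199 to 253 CPM in astrocytes and 211 to 359 CPM in oligodendrocytes in this joined fit, and without Sall1 43.3 to 74.0 CPM in astrocytes and 67.5 to 132 CPM in oligodendrocytes. Their part in the result was not tested.

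Other pathway genes differed in both directions. Of 16 receptor genes 8 were higher and 4 lower in astrocytes, with Tlr3, a sensor of double-stranded RNA (log2 5.35 ± 0.17), and Tnfrsf1a (2.76 ± 0.10) higher and Il1rap (-1.33 ± 0.09) lower. Of 31 signalling genes 7 were higher and 14 lower, and of 15 further targets 6 were higher and 6 lower. Ikbke (4.36 ± 0.24) was among the higher ones and Csf1 (-0.84 ± 0.07) among the lower.

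The age effect between 6 and 3 months was compared between astrocytes and oligodendrocytes in the same fit. Only Vcam1 differed among 22 members, where 16.4% of genes did (6.44% with a higher and 9.97% with a lower effect in astrocytes). Its change in astrocytes was lower by 2.02 on the log2 scale than its change in oligodendrocytes (SE 0.30, edgeR adjusted p = 0.000196). For Il1b (difference 1.97 ± 0.73, adjusted p = 0.0732) and Nfkbia (-1.36 ± 0.51, adjusted p = 0.0853) the difference did not pass. All 15 endothelial markers differed in the same direction as Vcam1.

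Of the 31 members tested in the paired culture fit 12 were lower with Omomyc, where 1.84% of all genes were lower. Of 9 members called higher with age in any cell type, 3 were lower there, 6 were not called and 0 were higher. This is near the share of all members tested. The 3 of these 9 were Nfkbiz, higher in 10 month astrocytes (log2 0.68 ± 0.18) and lower with Omomyc (-0.64 ± 0.07), Nfkbia in 6 month oligodendrocytes (1.46 ± 0.45, and -0.55 ± 0.08 with Omomyc) and Ccl3 in 10 month microglia (0.87 ± 0.19, and -0.82 ± 0.14 with Omomyc). The age calls of Nfkbiz, Nfkbia and Ccl3 were each lost in some of the fits that left out a library. Traf1 and Tnfaip2 rose in 10 month astrocytes (1.12 ± 0.18 and 0.81 ± 0.28) and stood at 0.23 ± 0.06 and -0.42 ± 0.11 with Omomyc. Vcam1, Icam1 and Bcl3 rose in 6 month oligodendrocytes (2.14 ± 0.28, 1.65 ± 0.32 and 1.63 ± 0.44) and stood at -0.24 ± 0.06, -0.11 ± 0.07 and -0.33 ± 0.10 with Omomyc. Cxcl16 rose in 10 month microglia (1.14 ± 0.25) and stood at 0.26 ± 0.06 with Omomyc. Adjusted p of these 6 in the paired culture fit ran from 0.0552 to 0.431. Il1b, which fell with age in 6 month oligodendrocytes, was also lower with Omomyc (log2 -1.17), so it moved the same way in both. These comparisons use different libraries and kits, and no test was made across them. The same overlap over all genes was not counted.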

How the data were processed

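RNA was sequenced from TDP-43_Q331K glia with a poly(A) kit carrying molecular identifiers for astrocytes and oligodendrocytes, a 3′ end kit for microglia and a Watchmaker mRNA kit for cultures, per the labels' protocols. The authors deposited raw counts per gene for each of the 4 tables. Tools listed in the submitters' processing notes are STAR (2.7.7a) and featureCounts (2.0.1), then fastp, DESeq2 and UMI-tools (1.0.1), with no role given. Genome builds listed there are mm10, GRCm39 and GRCm38.p6, with no table assigned. TPM values were deposited by the authors for astrocytes and oligodendrocytes and were used only to order genes by level. The deposited normalized tables of microglia and cultures were not used here.

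Counts were tested with edgeR 4.0.16 (quasi-likelihood, TMM scaling, filterByExpr with a minimum count of 10, R 4.3.3), and p-values were Benjamini-Hochberg adjusted over all genes of a table with a threshold of 0.05. The 3 astrocyte ages shared 1 fit, and astrocytes and oligodendrocytes of 3 and 6 months shared another, joined by gene symbol. Alternatives used RLE scaling, other filters, DESeq2 1.42.0, limma-voom (limma 3.58.1), the replicate number as a block and each library left out in turn. The unpaired fit is the planned one for the cultures. Deviations from the group means correlated at 0.432 to 0.682 between same-numbered culture libraries and at -0.526 to -0.051 between others, so the numbers were taken to pair the cultures. Deviations within a group sum to 0, so values above 0 for the same number push the others below it, and the ranges are not independent. The labels do not say that culture numbers mark a shared preparation, and the pairing was inferred from the same counts that were tested. Replicate numbers were not taken to pair the sorted libraries. The labels do not say that replicates are separate animals, so p-values measure the spread between these samples.

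Members and gene lists were chosen with earlier results of these data known. Values per library are given for members called in a comparison, and where fewer than 5 were called also for the 3 uncalled members with the highest mean CPM. Up to 4 genes with the smallest p are named from each list of other pathway genes. Rel, Relb, Lif, Ccl2, Tnf, Cxcl10 and other uncalled members outside that rule were named after their values were seen. Intervals and low counts carry counting error, and genes at a few counts per library are measured least precisely.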

Additional observations from a re-analysis of the deposited data

Results flagged for a closer look

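Among groups of 4 or more libraries, 92 sets of member values with a mean of at least 1 CPM were examined for a library far from the rest, and 8 were found. The cut-offs used flag about 1 in 20 sets of independent, normally distributed values. Low counts from shared libraries are not such values, and the share expected by chance here was not computed. In astrocytes, Birc3 was at 3.39 CPM in 3 month replicate 2, with the others at 1.90 to 2.04 CPM. Tnfaip2 was at 7.78 CPM in 6 month astrocyte replicate 1, with the others at 4.55 to 4.95 CPM.

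In oligodendrocytes at 6 months, Nfkbia was at 102.8 CPM in replicate 1, with the others at 26.9 to 39.3 CPM. The same library was the lowest for Tnfaip3, at 1.37 CPM, with the others at 2.94 to 3.19 CPM. At 3 months Il1b was at 1.16 CPM in replicate 4, with the others at 3.83 to 3.95 CPM. Rel was at 4.02 CPM in 3 month replicate 1, with the others at 5.24 to 5.46 CPM, and Bcl3 at 0.409 CPM in 3 month replicate 2, with the others at 1.23 to 1.33 CPM.

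In microglia Ccl3 was at 163.8 CPM in 10 month replicate 2, with the others at 277.7 to 296.7 CPM. The age effect on Vcam1 differed between cell types, with astrocytes minus oligodendrocytes at -2.02 on the log2 scale (edgeR adjusted p = 0.000196).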

How the results depend on the processing

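Counts of members called are given first as reported. With each library left out in turn they were 0 to 1 for astrocytes at 6 against 3 months (0 reported), 1 to 4 at 10 against 3 months (3 reported, and 1 without either 10 month library, where the remaining one is assumed to vary like the other groups), 0 to 1 at 10 against 6 months (1 reported), 3 to 7 in oligodendrocytes (5 reported), 0 to 3 in microglia (2 reported), 15 to 19 between the cell types (16 reported) and 1 to 3 for the age effect between them (1 reported). In microglia the count was 4 with no filter, 4 with DESeq2 and 1 with the replicate block. For the age effect it was 2 with no filter, with DESeq2 and with the block.

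In cultures the unpaired count was 0, also with any library left out, and 5 with DESeq2. With the replicate block it was 12, and further paired fits chosen after seeing the data gave 13 with DESeq2, 9 with limma-voom, 12 with RLE scaling, and 11, 15 and 15 without replicate 1, 2 and 3. In the same order these further fits called 729, 647, 688, 566, 1085 and 1130 genes in all. Over all genes the block moved the count to 656, against 3 without it. The block changed the call of Tnfaip2 in 10 month astrocytes (adjusted p = 0.187), of Bcl3 and Nfkbia in oligodendrocytes (adjusted p = 0.0857 and 0.0572) and of Cxcl16 in microglia (adjusted p = 0.0675), where the numbers do not pair the libraries. Summed member CPM in 10 month astrocytes was 481.7 with TMM and 477.5 with RLE.

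Uncalled values near 0 changed sign. Vcam1 at 6 against 3 months in astrocytes was -0.0405 with the block and -0.0589 to 0.0777 over libraries left out. Nfkbia was -0.113 to 0.289 there, 0.0921 with the block and -0.294 to 0.173 at 10 against 3 months, and -0.302 to 0.0743 at 10 against 6 months. The age effect difference of Nfkb1 was -0.0129 to 0.160. The cause was not tested. Over all genes, counts at 10 against 6 months in astrocytes (147) were 578 with no filter, 609 with DESeq2 and 56 with the block, and in microglia (395) they were 730, 748 and 211.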
